A study of Rattus norvegicus with 5 samples.

Results

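IL-17-producing T cells of rat skin are described here in 5 single-cell RNA sequencing libraries of skin of male Sprague-Dawley (SD) rats. A barcode was taken as such a cell when it held at least 1 unique molecular identifier (UMI, 1 counted RNA molecule) in at least 2 of Cd3d, Cd3e, Cd3g, Cd2 and Icos and at least 2 UMIs of Il17a and Il17f together. It had to hold no C1q UMI and less than 1% of its UMIs from 3 collagen-type genes and less than 1% from 6 keratin genes. The rule found 681 cells among 43408 kept barcodes of 49507 in all. The members were thus chosen by their Il17a and Il17f UMIs and by the T cell genes. The control library came from skin that was not irradiated (control), and the other libraries from skin collected after irradiation, at day 7 (7 d), 14 (14 d), 28 (28 d) or 60 (60 d). The study's methods describe a single dose of electron beam irradiation to a skin field for the times up to 28 d, and the 60 d library is not described there, so whether it had the same dose is not known. With 1 library per group there was no test between groups, and effects of irradiation, animal and tissue handling cannot be told apart. How many animals gave each library is not given in the labels.

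Interleukin 17A and 17F are secreted as dimers and bind a shared receptor on keratinocytes and fibroblasts, which answer with neutrophil-attracting chemokines and antimicrobial proteins. In skin they come from T helper 17 cells, from gamma-delta T cells that live in the dermis and epidermis, and from innate-like lymphocytes. These cells respond to interleukin 23 and interleukin 1 and often also make interleukin 22, which acts on keratinocytes. A T cell receptor type could not be assigned here, because constant-region symbols of the receptor chains were not matched in the gene list.

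Il17a and Il17f lie next to each other in the rat genome and were the readout that chose the cells, so the 250 bases before each start are shown to let a reader compare the promoters of the 2 genes whose balance is described below. The sequences are from RefSeq on the build GRCr8, which is not the build of the count files. That of Il17a is chr9:30640594-30640843 on the plus strand and that of Il17f is chr9:30697919-30698168 on the minus strand, both printed 5′ to 3′ in the direction of the gene. Capitals mark AGGTCA on either strand, a core that nuclear receptors read, and TATAAA on the printed strand.
Il17a: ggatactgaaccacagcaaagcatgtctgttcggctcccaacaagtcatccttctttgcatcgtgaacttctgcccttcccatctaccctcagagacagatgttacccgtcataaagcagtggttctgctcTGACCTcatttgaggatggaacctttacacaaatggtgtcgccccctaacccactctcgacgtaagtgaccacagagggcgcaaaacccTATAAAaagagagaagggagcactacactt
Il17f: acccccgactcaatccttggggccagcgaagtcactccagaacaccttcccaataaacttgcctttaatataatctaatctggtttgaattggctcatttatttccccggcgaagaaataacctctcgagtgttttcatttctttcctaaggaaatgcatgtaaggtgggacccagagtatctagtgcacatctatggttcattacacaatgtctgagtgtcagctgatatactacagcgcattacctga
The Il17a window held AGGTCA once, as its reverse complement TGACCT starting 119 bases before the start, and TATAAA starting 30 bases before it. The Il17f window held neither string of letters. Over 33469 rat promoters of this length, 14.1% held AGGTCA on either strand and 8.06% held TATAAA, so a match is a description of the letters and not of a site.

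The cells were rare in control skin and most numerous in the 28 d library. Control skin gave 2 of them, the 7 d library 11, the 14 d library 68 and the 60 d library 44. The 28 d library gave 556, which was 81.6% of all. Their share of the kept barcodes was 0.0197% in control (exact 95% interval 0.00239 to 0.0711) and 0.0973% in the 7 d library (0.0486 to 0.174). It was 1.56% in the 14 d library (1.21 to 1.97), 6.16% in the 28 d library (5.67 to 6.67) and 0.515% in the 60 d library (0.374 to 0.690). The intervals of the 7 d, 14 d, 28 d and 60 d libraries did not overlap each other, and those of control and 7 d did. Such intervals cover counting error only. The shares also move with how many keratinocytes and fibroblasts a library held.

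Within the T cells of the same libraries the order was flatter. Barcodes that met the T cell part of the rule numbered 63 and 69 in the control and 7 d libraries, 404 and 958 in the 14 d and 28 d libraries, and 225 in the 60 d library. IL-17-producing cells were 3.17% of the control T cells (0.387 to 11.0), 15.9% of those of 7 d (8.24 to 26.7) and 16.8% of those of 14 d (13.3 to 20.8). They were 58.0% of the 28 d T cells (54.8 to 61.2) and 19.6% of the 60 d T cells (14.6 to 25.3). The 28 d interval lay above those of the other 4 libraries, and the 7 d, 14 d and 60 d intervals overlapped one another. Near the threshold, 54 of the 28 d cells held exactly 2 IL-17 UMIs, and 82 T cells of that library with a single IL-17 UMI fell just outside; at 14 d these numbers were 10 and 16.

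**Figure D1:**
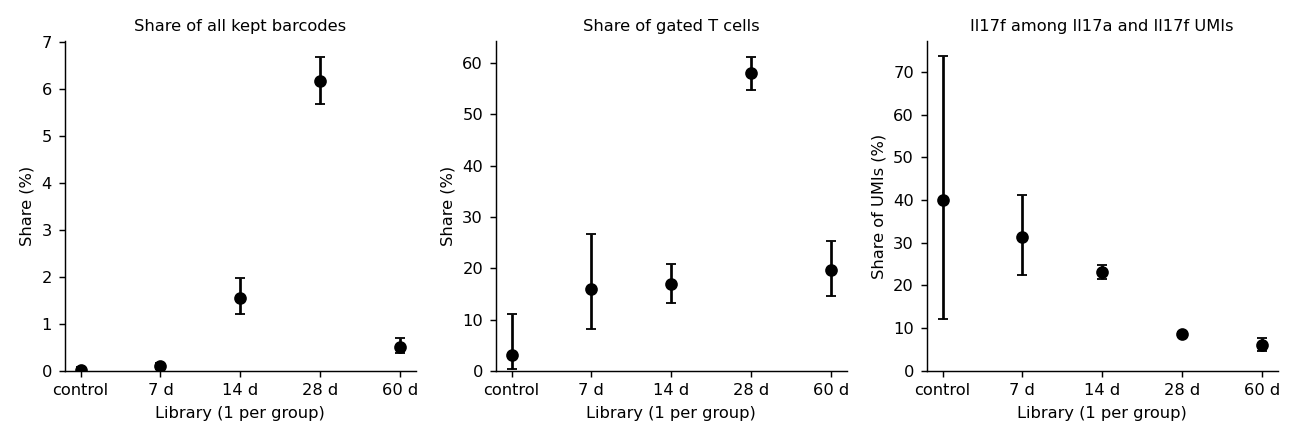
Share of IL-17-producing T cells among all kept barcodes (left, %), their share among barcodes that met the T cell rule (middle, %), and the share of Il17f in the Il17a and Il17f UMIs of these cells (right, %), 1 library per group. Points are the values and bars exact 95% binomial intervals, which take each barcode or UMI as independent. The 28 d library stood highest in the first pair of plots, at 6.16% and 58.0%. The Il17f share was 23.2% at 14 d and 8.59% at 28 d.

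IL-17 UMIs were also counted in barcodes of cell types that should lack them; free RNA and doublets were not separated. In the 28 d library 7.64% of 4423 keratinocyte barcodes held an Il17a or Il17f UMI and 0.859% held at least 2, at a median depth of 10938 UMIs. In T cells of that library, at a median depth of 1835.5 UMIs, 66.6% held at least 1 and 58.0% at least 2. In CPM, the count per 1000000 UMIs, IL-17 was at 9.01 in keratinocyte barcodes and 5123 in T cells. In control 0.0226% of keratinocyte barcodes held an IL-17 UMI. A further 357 barcodes of the 28 d library held at least 2 IL-17 UMIs but were not taken, 252 of them because fewer than 2 of the T cell genes were seen and 172 because keratins reached 1% of UMIs, the reasons overlapping. Such barcodes numbered 0 in control and 1, 8 and 11 in the 7 d, 14 d and 60 d libraries.

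Il17a gave most of the IL-17 UMIs, and the share of Il17f differed between libraries. The values in this paragraph describe the genes that chose the cells and carry no test. The control cells held 6 Il17a and 4 Il17f UMIs, and the 7 d cells 70 and 32. The 14 d cells held 2024 and 610, the 28 d cells 9827 and 923, and the 60 d cells 900 and 58. Il17f was therefore 31.4% of these UMIs in the 7 d library (22.5 to 41.3), 23.2% in the 14 d library (21.6 to 24.8), 8.59% in the 28 d library (8.06 to 9.13) and 6.05% in the 60 d library (4.63 to 7.76). At 14 d 33 of 68 cells held both transcripts, 28 only Il17a and 7 only Il17f. At 28 d 157 of 556 cells held both, 393 only Il17a and 6 only Il17f. Il17f exceeded Il17a in 1 of 2 control cells, 3 of 11 cells of the 7 d library and 17 of 68 of the 14 d library, and in 27 of 556 and 1 of 44 of the 28 d and 60 d libraries. Cells differ in depth, so each cell with at least 10 IL-17 UMIs was also thinned to 10. An Il17f UMI was then seen in 67.5% of 40 cells of the 14 d library (50.9 to 81.4), 27.6% of 304 of the 28 d library (22.7 to 33.02) and 31.8% of 22 of the 60 d library (13.9 to 54.9). The 14 d share was higher than the 28 d share on either measure, and after thinning the 60 d interval overlapped those of both. These intervals take each UMI or cell as independent, and UMIs and cells of 1 library are not replicates. The 7 cells with the most Il17f UMIs held 56.2% of them at 14 d. The top 56 at 28 d held 77.5% and the top 5 at 60 d 82.8%, so the intervals of the UMI shares are too narrow. A few cells carried much of the signal, since the top 7 cells at 14 d held 51.9% of its IL-17 UMIs and the top 56 at 28 d held 38.8%. The median cell of the 7 d, 14 d, 28 d and 60 d libraries held 5, 15, 11 and 9.5 IL-17 UMIs and the highest cell 42, 323, 170 and 145.

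**Figure D2:**
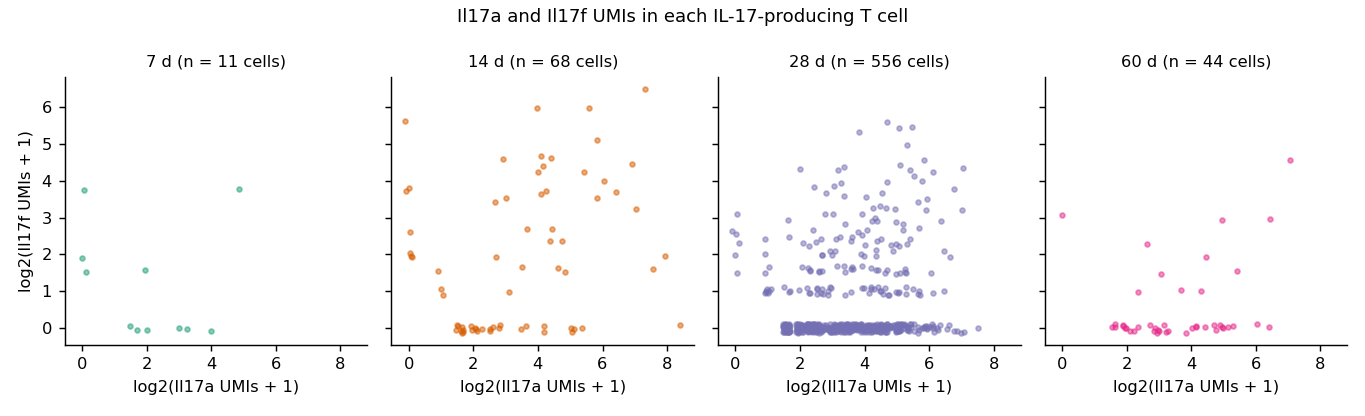
Il17a (x axis) and Il17f (y axis) UMIs of each IL-17-producing T cell on the log2(UMIs + 1) scale, 1 point per cell with a small random shift, for the 7 d, 14 d, 28 d and 60 d libraries. Cells along the bottom held no Il17f UMI, 393 of 556 at 28 d and 28 of 68 at 14 d.

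Genes of T cell subsets that the rule did not use were sparse. Cd8a or its partner chain was seen in 56 of 681 IL-17-producing cells and Cd4 in 26, none held both, and 88.0% held neither. Among the 932 T cells of the same libraries with no IL-17 UMI, the comparison class, 203 held Cd8 and 54 held Cd4. Neither was seen in 72.4% of that class. These pooled values mix the libraries in unlike proportions, since 28 d gave 556 of the 681 cells but 320 of the 932. Cd8 was seen in 0 of 2 cells against 34.4% in control, 27.3% against 22.2% at 7 d and 10.3% against 15.6% at 14 d. Its share was 7.55% against 12.2% at 28 d and 9.09% against 45.8% at 60 d. At least 2 of 10 cytotoxic genes were seen in 4.11% of IL-17-producing cells and in 33.3% of T cells without IL-17, all libraries pooled. By library this was 1 of 2 cells against 41.0% in control, 4 of 11 against 31.5% at 7 d, 2.94% against 34.1% at 14 d, 2.34% against 20.6% at 28 d and 18.2% against 52.5% at 60 d. By this count the IL-17-producing cells were not lower in control and at 7 d, where they were few. Single genes of the 10 could differ from the count. The IL-17-producing cells of 7 d held 0 UMIs of Ccl5, Gzmm, Nkg7 and Gzmk, against 1116, 209, 110 and 38 in T cells without IL-17. Foxp3, the regulatory T cell factor, was seen in 1 of 11 cells of the 7 d library, 1 of 68 of the 14 d library, 5 of 556 of the 28 d library and 0 of 44 of the 60 d library.
Depth was alike in both classes within a library. In the 7 d, 14 d, 28 d and 60 d libraries the median IL-17-producing cell held 4944, 4584, 1897.5 and 3749.5 UMIs and the median T cell without IL-17 held 4434.5, 3956, 1811 and 3640. No barcode sequence of these cells was shared between libraries.

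The class comparison asked how IL-17-producing T cells differ from the other T cells of the same skin. Raw UMIs were summed over the cells of each class in the 7 d, 14 d, 28 d and 60 d libraries and tested with edgeR's quasi-likelihood test with the library as a block, leaving out the 19 genes of the rule. Of 4341 genes tested, 108 were higher in IL-17-producing cells (2.49%) and 120 were lower (2.76%) at an adjusted p below 0.05. Levels are CPM of the UMIs of a class in a library without the rule's genes, given for IL-17-producing cells against T cells without IL-17 in the order 7, 14, 28 and 60 d. Fold changes are log2 values from the fit over 4 libraries with their standard error (SE). The p-values rest on how far the class difference within a library varied over these 4 libraries, which were taken on different days.

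Among genes known from innate-like and gamma-delta T cells, Scart1 and Blk were higher. Scart1, a scavenger receptor known from IL-17-producing gamma-delta T cells, was at 180, 191, 94.96 and 90.8 CPM, against 47.6, 10.1, 24.3 and 10.0 CPM. The IL-17-producing cells were higher in each library, and the fitted difference was 2.88 ± 0.37 (SE; adjusted p = 0.000526), or 2.23 without the 14 d library. Blk, a Src family kinase of B cells that is also needed by these gamma-delta T cells, was at 98.1, 92.5, 84.1 and 150 CPM against 51.5, 13.0, 13.5 and 21.5 CPM. Its difference was 2.44 ± 0.31 (adjusted p = 0.000442). Of the 11 genes found of the gamma-delta and innate-like list, 6 could be tested, and Blk and Scart1 were higher, Klrb1a was lower and 3 were not called. Klrb1a, a lectin receptor of NK cells, was at 0, 2.80, 14.2 and 16.03 CPM against 178, 125, 83.7 and 58.8 CPM, a difference of -3.08, or -3.96 without the 28 d library. The list's median log2 difference was -0.21, that of all tested genes -0.02. Adam18, a member of the ADAM family, had the highest fitted difference, 3.16 ± 0.42 (adjusted p = 0.000574), from 150 UMIs against 26. At 7 d it had 2 UMIs against 7, or 32.7 against 27.7 CPM.

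**Figure D3:**
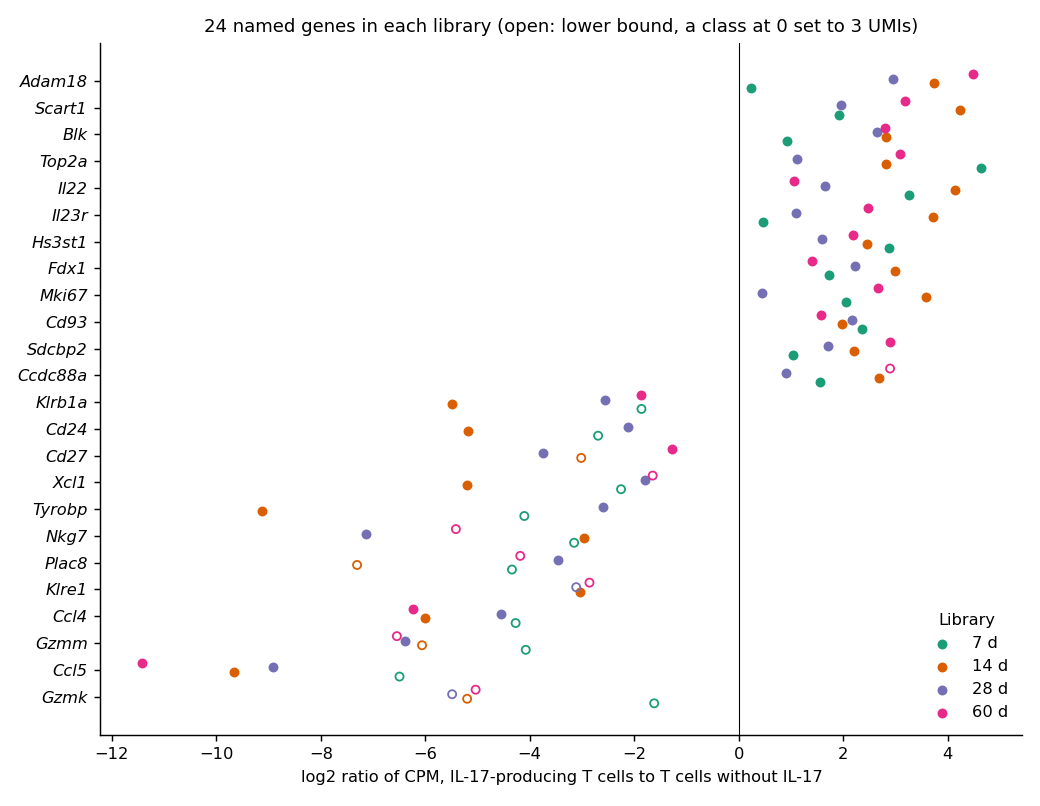
The 12 genes with the highest and the 12 with the lowest fitted difference between the classes (y axis), with the log2 ratio of CPM in each of the 7 d, 14 d, 28 d and 60 d libraries (x axis, colours). Filled points are measured ratios and open points lower bounds where a class was at 0 UMIs and was set to 3; bounds that give no direction are not drawn. All filled points of Adam18 to Ccdc88a lie above 0 and those of Klrb1a to Gzmk below it.

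Among cytokines and their receptors, Il22, Areg, Il23r, Il2ra and Il2rb were higher. Il22, the partner cytokine that acts on keratinocytes, was at 114, 115, 187 and 48.1 CPM against 11.9, 6.51, 59.4 and 22.9 CPM. It was higher in each library, by 2.30 ± 0.40 (adjusted p = 0.00385), from 282 UMIs against 72, and by 1.68 without the 14 d library. It was seen in a minority of the cells, 13.2% at 14 d and 12.8% at 28 d, against 1.25% and 6.56% of T cells without IL-17. The 7 d and 60 d values rest on 3 of 11 and 2 of 44 cells, with 5 of 7 and 6 of 9 UMIs in 1 cell. In the 14 d library 1 cell held 15 of the 41 UMIs. At 28 d an Il17f UMI was found in 25.4% of the 71 cells with Il22 and in 29.9% of the 485 without it. Areg, an epidermal growth factor receptor ligand, was at 0, 154, 186 and 16.03 CPM against 7.93, 28.2, 68.8 and 4.30 CPM. Its difference was 1.87 ± 0.31 (adjusted p = 0.00273). At 7 d it had 0 UMIs against 2, which gives no direction.
Il23r, the interleukin 23 receptor chain that sustains IL-17 output, was at 49.1, 123, 37.5 and 16.03 CPM against 35.7, 9.41, 17.5 and 2.87 CPM. The call, 2.22 ± 0.48 (adjusted p = 0.0155), rested on the 14 d library, without which it was 1.12 with an adjusted p of 0.2995. Il2ra, the high-affinity interleukin 2 receptor chain, was at 1161, 1189, 711 and 401 CPM against 583, 347, 425 and 228 CPM (1.08 ± 0.21, adjusted p = 0.00701). Il2rb was higher by 0.92 ± 0.18 (adjusted p = 0.00741). Of 10 tested genes of the cytokine receptor list these 3 were higher, none was lower, and the list's median was -0.26. Of 9 tested genes of the cytokine list, Il22 and Areg were higher and Ccl3, Ccl4, Ccl5 and Vegfa were lower, with a median of -0.07. Ifng was seen in 0 of the 14 d cells and 0.36% of the 28 d cells, against 6.56% and 2.50% of T cells without IL-17, and was too sparse for the test.

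Transcription factors of the type 17 list were higher for 4 of 12 tested genes and lower for 0, with a median of 0.47. Batf, an AP-1 partner needed for IL-17 output, was at 442, 370, 389 and 198 CPM against 119, 146, 192 and 74.6 CPM (1.35 ± 0.19, adjusted p = 0.000807). Irf4, which binds DNA together with Batf, was higher by 1.26 ± 0.23 (adjusted p = 0.00458). Rora, a nuclear receptor, was at 589, 457, 537 and 224 CPM against 400, 245, 254 and 139 CPM. Its call (0.83 ± 0.18, adjusted p = 0.0157) was lost without the 28 d library (0.70, adjusted p = 0.0845). Ikzf3, a lymphocyte zinc finger factor, was at 654, 578, 467 and 353 CPM against 305, 160, 201 and 172 CPM (adjusted p = 0.00143). Stat3, Hif1a, Maf and Ahr had fitted differences of -0.08, 0.61, 1.05 and -0.38 and were not called.

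Tissue residency genes were higher for 5 of 11 tested and lower for 0, with a median of 0.56. Cd69, which holds T cells in tissue, was at 1799, 1177, 1092 and 1389 CPM against 547, 475, 740 and 682 CPM (1.12 ± 0.19, adjusted p = 0.00267). Itgae, the integrin chain that binds epithelial cadherin, was at 81.8, 179, 232 and 369 CPM against 111, 27.5, 128 and 80.3 CPM. Its difference was 1.55 ± 0.34 (adjusted p = 0.0156), with 7 d the other way. Cxcr6, a chemokine receptor of skin-resident T cells, was higher in each library by 1.49 ± 0.31 (adjusted p = 0.0120), and by 1.12 with an adjusted p of 0.0528 without the 14 d library. S1pr1, the receptor by which T cells leave tissue, had a difference of -1.30 (SE 0.35, adjusted p = 0.0488). The call was lost without the 7 d, the 28 d or the 60 d library, with adjusted p of 0.133, 0.133 and 0.150, and the difference was -2.01 without the 14 d library. Cd44, a hyaluronan receptor, and Rgs2, a regulator of G protein signalling, were the other residency genes called, by 0.98 and 0.94, Rgs2 not without the 7 d library (adjusted p = 0.0566). Ccr6, the receptor for Ccl20 and a usual mark of IL-17-producing cells, was at 180, 151, 149 and 192 CPM against 135, 111, 139 and 116 CPM. Its difference of 0.39 was not called (SE 0.19, adjusted p = 0.321).

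**Figure D4:**
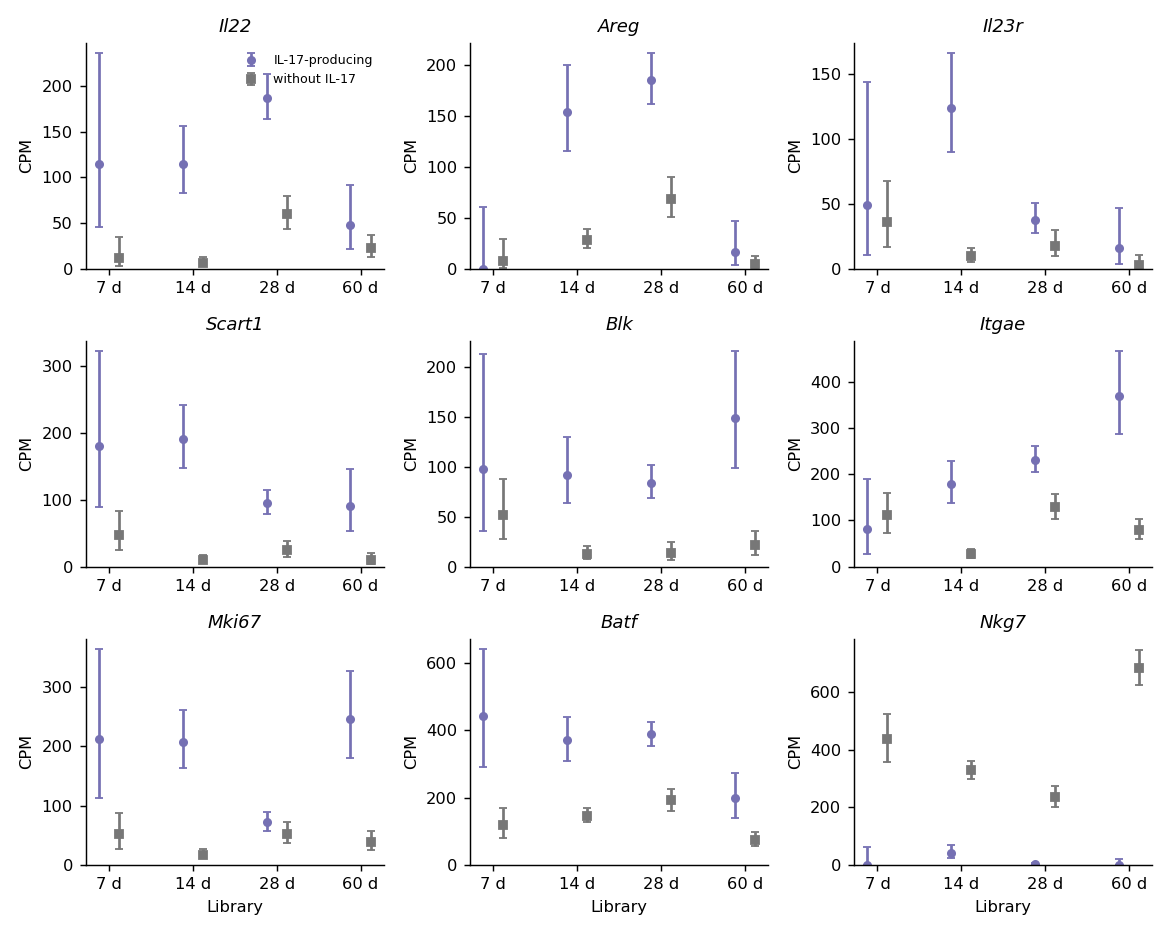
Level in CPM of 9 genes in IL-17-producing T cells (circles) and T cells without IL-17 (squares) in the 7 d, 14 d, 28 d and 60 d libraries, with exact 95% Poisson intervals that cover counting error only. Il22, Scart1, Blk, Mki67 and Batf were higher in IL-17-producing cells in each library and Nkg7 was lower in each; Itgae was not higher at 7 d, where Areg had 0 and 2 UMIs.

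Genes of proliferation were higher for 6 of 11 tested and lower for 0, with a median of 1.30. Mki67, a protein of cycling cells, was at 213, 207, 71.6 and 246 CPM against 51.5, 17.4, 52.6 and 38.7 CPM (2.14 ± 0.40, adjusted p = 0.00616), a difference of 1.54 without the 14 d library and 2.84 without the 28 d library. It was seen in few cells, 2 of 11 at 7 d, 9 of 68 at 14 d, 27 of 556 at 28 d and 4 of 44 at 60 d. Top2a, a topoisomerase of dividing cells, was higher by 2.40 ± 0.38 (adjusted p = 0.00194), by 3.04 without the 28 d library, and at 60 d 30 of its 32 UMIs came from 1 cell. Cenpf, Kif11, Kif23 and Stmn1, which also act in cell division, were the other genes called. Cenpf was not called without the 7 d or the 60 d library (adjusted p = 0.138 and 0.0940), Kif23 without the 14 d or the 28 d library (0.304 and 0.0749) and Stmn1 without the 7 d library (0.0693). Without the 28 d library Cenpf was at 3.55 rather than 2.32 and Kif11 at 2.71 rather than 2.11. The share of cells with an Mki67 UMI was 13.2% against 3.12% at 14 d and 4.86% against 4.69% at 28 d.

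Further genes of the leading 12 have more general roles. Hs3st1, a heparan sulphate sulphotransferase, was at 556, 521, 269 and 299 CPM against 75.3, 95.5, 89.1 and 65.9 CPM, a difference of 2.21 ± 0.22 (adjusted p = 7.91e-05). Fdx1, a mitochondrial ferredoxin, was at 409, 1318, 816 and 219 CPM against 123, 165, 174 and 83.2 CPM (2.20 ± 0.26, adjusted p = 0.000393). Cd93, a C-type lectin-like receptor, differed by 2.05 ± 0.24 (adjusted p = 0.000393), Sdcbp2 by 2.03 and Ccdc88a by 1.95, the last not called without the 14 d library (1.43, adjusted p = 0.0686).

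The lower genes were led by cytotoxic and NK cell genes. Gzmk, a granzyme, had 0 UMIs in the IL-17-producing cells of all 4 libraries and 915 in T cells without IL-17. With 3 UMIs set over totals pooled over the libraries it was 179-fold lower. That value ignores the library block and moves with the mix of libraries in each class. Its level in T cells without IL-17 was 151, 309, 112 and 526 CPM. Ccl5, a chemokine of cytotoxic T and NK cells, was at 0, 5.61, 6.66 and 5.34 CPM against 4423, 4551, 3213 and 14626 CPM, with 11 UMIs against 19989 (-9.60 ± 0.29, adjusted p = 1.17e-10; -10.58 without the 28 d library). Nkg7, a granule protein, was at 0, 42.1, 1.67 and 0 CPM against 436, 329, 235 and 684 CPM (-4.97 ± 0.54, adjusted p = 0.000189), and all 15 UMIs of the 14 d library were in 1 cell. Without the 14 d library its difference was -7.58, and without the 28 d library -4.32. Of 11 tested genes of the cytotoxic and NK list, 8 were lower (Gzmk, Ccl5, Nkg7, Gzmm, Klrd1, Ctsw, Tbx21 and Faslg) and Cst7, an inhibitor of granule proteases, was higher, with a median of -1.91. Tbx21, the factor of type 1 T cells, was at 16.4, 14.0, 6.66 and 0 CPM against 103, 52.1, 39.1 and 91.8 CPM (-2.67 ± 0.43, adjusted p = 0.00208). Cd27, a costimulatory receptor absent from many IL-17-producing gamma-delta T cells, had 8 UMIs against 173 (-3.36 ± 0.54, adjusted p = 0.00204), and -4.28 without the 60 d library.
The comparison class also held RNA of genes used as myeloid markers. At least 2 of 9 such genes were seen in 18.1% of its cells at 14 d and 10.0% at 28 d, against 1.47% and 1.80% of IL-17-producing cells. Tyrobp and Fcer1g, which NK cells also express, are 2 of the 9. Over all libraries they were seen in 151 and 91 of the 932 cells of this class, and each of the others in fewer, Cd68 in 41. The count therefore does not tell myeloid cells from NK cells. The 14 genes of the macrophage and dendritic list summed to 4919 and 11104 CPM against 754 and 1714 CPM. Tyrobp, an adaptor of NK and myeloid cells, was at 3152 CPM at 14 d and 1.43 CPM at 60 d in T cells without IL-17, and its difference of -4.54 was -2.9999 without the 14 d library. Fcer1g, Tyrobp, RT1-Da and Cst3 of that list were lower, with RT1-Da at -2.27, or -1.45 without the 28 d library. Cd24, RT1-Da and Cst3 were no longer called when cells with at least 2 of the 9 genes were left out of both classes. Fcer1g and Tyrobp are among the genes by which those cells were taken out, so this setting cannot check them. It was chosen after the data were seen and left 100 genes higher and 79 lower of 3909 tested.
When cells with at least 2 cytotoxic genes were left out of the comparison class, 48 genes were higher and 41 lower. These were of 3386 genes tested, against 4341 in the main fit. Scart1 (2.58, adjusted p = 0.00557), Blk (1.92, adjusted p = 0.00936) and Batf (1.17, adjusted p = 0.00704) kept their calls, while Il22 (1.96, adjusted p = 0.0863), Il23r (1.84, adjusted p = 0.0866), Mki67 (1.98, adjusted p = 0.0709) and Il2ra (0.75, adjusted p = 0.132) did not. Neither did Rora (0.87, adjusted p = 0.0640), Cxcr6 (1.36, adjusted p = 0.0683), S1pr1, Ccdc88a, Stmn1, Cenpf, Kif23, Cd44, Rgs2, Ccl3 and Ccl4. Ctsw, a lysosomal protease of cytotoxic cells, was 1 of the 10 genes by which those cells were taken out and turned from -0.90 (adjusted p = 0.0460) to 0.87 (adjusted p = 0.173).

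The stress and signalling lists held few called genes, as did all tested genes, of which 2.49% were higher and 2.76% lower. Of 11 tested interferon response genes 0 were called, with a median of 0.15. Of 13 early response genes Fos was the 1 called, at 327, 210, 728 and 1138 CPM against 884, 393, 1105 and 1445 CPM (-0.77 ± 0.18, adjusted p = 0.0245). Without the 7 d library Fos was not called (-0.60, adjusted p = 0.112). Of 9 heat shock genes Hspb1 was lower (-1.49, adjusted p = 0.00458), though not without the 28 d library (adjusted p = 0.0816), and of 14 p53 targets Gadd45a was higher (1.22 ± 0.26, adjusted p = 0.0146; 0.90 and 0.0517 without the 60 d library) while Cdkn1a, the p21 arrest gene, had a difference of -0.28 (adjusted p = 0.748). Nr4a1, the nuclear receptor Nur77 that antigen receptor signals induce, was at 294, 135, 503 and 689 CPM against 277, 119, 333 and 635 CPM, a difference of 0.25 that was not called (SE 0.18, adjusted p = 0.570).

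Between libraries, the 556 cells of 28 d could be set against the 68 of 14 d; control, 7 d and 60 d held fewer than 50 and are given above as values only. This comparison is of 1 library with 1 library, its intervals cover counting error, and it has no test. The 28 d cells were shallower, and rows of the mitochondrial ribosomal RNAs took 6.15% of their UMIs against 2.21% at 14 d. Of 3006 genes with at least 50 UMIs over both, 235 were at least 2-fold higher at 28 d (7.82%) and 187 at least 2-fold lower (6.22%), with a median log2 ratio of -0.12. Higher genes were thus 55.7% of those past 2-fold, 79.5% when the libraries were scaled by TMM factors (334 higher, 86 lower, median 0.11) and 66.8% when mitochondrial rows were left out of the totals (272 and 135). Of 4170 genes measured in T cells without IL-17 of the same 2 libraries, 191 were at least 2-fold higher at 28 d and 470 at least 2-fold lower.

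Interferon response genes were lower at 28 d. Of 11 measured, 0 were at least 2-fold higher and 6 at least 2-fold lower, with a median of -1.09, and -0.85 under TMM scaling. Isg15, a ubiquitin-like protein induced by type I interferon, was at 278 CPM at 14 d and 60.0 CPM at 28 d, a ratio of 0.216 (exact 95% interval 0.157 to 0.296). Bst2, which tethers viruses to the cell surface, was at 749 and 177 CPM, and Gbp2, a guanylate-binding protein, at 123 and 23.3 CPM. In T cells without IL-17 Isg15 was at 137 and 60.7 CPM and Gbp2 at 88.3 and 18.9 CPM. Cxcl10, a chemokine induced by interferon gamma, was at 185 CPM at 14 d and 25.0 CPM at 28 d. Its levels in T cells without IL-17 were 124 and 59.4 CPM.

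Proliferation genes were at least 2-fold lower for 3 of 6 measured and higher for 0, with a median of -0.71, or -0.47 under TMM scaling. Mki67 was at 207 and 71.6 CPM (ratio 0.345, interval 0.25 to 0.48), while in T cells without IL-17 it was at 17.4 and 52.6 CPM, the opposite direction. Stmn1, a tubulin regulator, was at 429 and 152 CPM. Il2, the T cell growth factor, had 75 UMIs in 8 of the 14 d cells, 30 of them in 1 cell, and 6 UMIs at 28 d, a ratio of 0.0238 (0.00846 to 0.0542). In T cells without IL-17 it was at 36.2 and 8.10 CPM. Snrpg, a spliceosome protein, at 264 and 48.3 CPM, and Hypk, a partner of the huntingtin protein, at 219 and 50.8 CPM, were also among the 6 lowest ratios. Both were lower at 28 d in T cells without IL-17 too, Snrpg at 173 and 51.3 CPM and Hypk at 216 and 48.6 CPM. Il23r was at 123 and 37.5 CPM (ratio 0.304, 0.20 to 0.47) and Il22 at 115 and 187 CPM (1.63, 1.16 to 2.33). None of 12 type 17 transcription factors was past 2-fold in either direction, with a median of -0.06; after thinning to 1000 UMIs 2 of 9 were at least 2-fold higher and 0 lower, with the median still at -0.06.

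Part of the early response and heat shock genes were at least 2-fold higher at 28 d. Of 13 genes of the AP-1 and early response list, 7 were at least 2-fold higher and 0 lower, with a median of 1.06, and 1.29 under TMM scaling. Junb was at 477 CPM at 14 d and 2113 CPM at 28 d (ratio 4.43, 3.80 to 5.21), and Fos at 210 and 728 CPM. Nr4a1 was at 135 and 503 CPM (3.74, 2.78 to 5.13), and its relative Nr4a2 at 8.41 and 108 CPM (12.9, 4.31 to 63.2). Among heat shock genes, Hspa1b was at 101 and 631 CPM, and 3 of 8 were at least 2-fold higher with a median of 0.60. After thinning to 1000 UMIs, 3 of the 13 early response genes were at least 2-fold higher and 1 lower, with a median of 0.63. Of 12 measured p53 targets 0 were at least 2-fold higher and 1 was lower, with a median of -0.27. T cells without IL-17 had log2 ratios of 1.35 for Junb, 1.49 for Fos, 1.49 for Nr4a1 and 1.18 for Nr4a2.
RNA of other skin cells moved with these genes. The 10 keratinocyte genes summed to 743 CPM at 14 d and 1969 CPM at 28 d in IL-17-producing cells, and to 897 and 1796 CPM in T cells without IL-17. Among the 6 genes with the highest ratios, Tgm3, a transglutaminase of the epidermis, was at 11.2 and 157 CPM, and Stfa2, a cystatin, at 22.4 and 238 CPM. The others were Nr4a2, given above, and Hspb1, Igfbp7 and Cd63. Hspb1, Igfbp7 and Cd63 had log2 ratios of 3.48, 2.60 and 3.26 in T cells without IL-17, and Tgm3 and Stfa2 4.42 and 1.94. Of 6 measured keratinocyte genes 5 were at least 2-fold higher at 28 d. Fibroblast genes summed to 19.6 and 199 CPM in IL-17-producing cells. Of 5 measured genes of the macrophage and dendritic list 4 were at least 2-fold higher, with a median of 1.42, and that list summed to 754 and 1714 CPM. The part of this RNA in the differences was not tested.

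**Figure D5:**
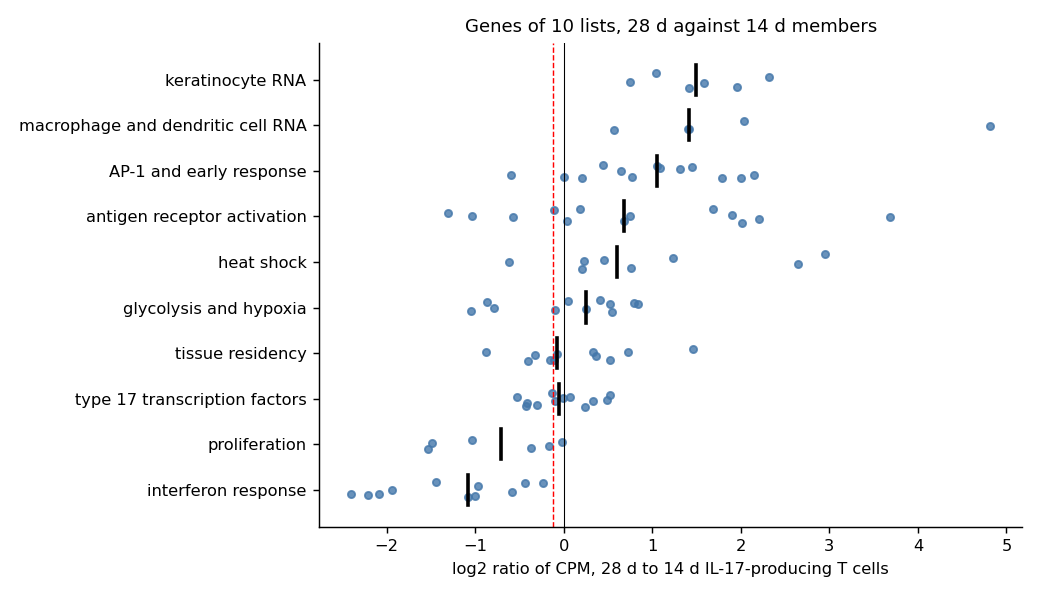
Log2 ratio of CPM of 28 d to 14 d IL-17-producing T cells (x axis) for the measured genes of 10 lists (y axis); each point is a gene, black bars are list medians, the black line is 0 and the red dashed line is the median of 3006 genes, -0.12. Interferon response genes lie to the left (median -1.09), and AP-1 and early response (1.06) and keratinocyte genes (1.497) to the right.

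By UMI count, leaving out mitochondrial and ribosomal protein genes, the most abundant transcripts of the 681 cells were Tmsb4x, Tpt1 and B2m, with 25676, 25545 and 20010 UMIs. Il17a, which chose the cells, followed with 12827 UMIs, of which 9827 were from 28 d, and the next ranks included Tmsb10, H3f3a, Fth1, Fau, Crip1, Eif1, Hsp90ab1, Vim, S100a4 and Ubb. Most of these are cytoskeletal or housekeeping genes, while S100a4 and Crip1 are often high in memory T cells.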

How the data were processed

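Skin of SD rats was measured in 5 droplet-based libraries (Chromium Single Cell 3' v3), 1 per group. The submitters' processing notes name Cell Ranger 5.0.0, STAR, Seurat 3.1.1 and the build Rnor_6.0. What the authors deposited were UMI counts per gene and barcode, not normalized. Rows that share a symbol were summed.

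A barcode was kept if it had 500 or more UMIs over 300 or more genes, with Mt- genes giving no more than 20%. The members, lists and tests were chosen with earlier results of these data known. Doublets were not removed; leaving out the top 6% of Scrublet scores was an alternative. Groups came from the treatment labels. UMIs were summed per class and library and tested in edgeR 4.0.16 (quasi-likelihood, TMM, low-count filter, library as block, Benjamini-Hochberg) in the 4 libraries with at least 10 cells in each class. On simulated counts, 68 of 100 genes changed 2-fold and 99 of 100 changed 4-fold were recovered in this comparison. The changed genes were drawn from those above 100 CPM, with 1 fixed dispersion and the same mean in every library. The rates therefore do not cover sparser genes or the spread of the real libraries. DESeq2 1.42.0 was an alternative. Classes held 61136 to 1382124 UMIs per library in that fit. Shares carry exact Clopper-Pearson intervals, levels exact Poisson intervals and ratios exact conditional binomial intervals, all at 95% and for counting error only. A count of 0 was set to 3 for ratios.

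Named genes between classes are the 12 highest and 12 lowest fold changes among calls with at least 50 CPM in the higher class and 1 direction in every library. Direction was taken from CPM however few the UMIs, as for Tyrobp at 60 d, with 0 against 1 UMI. Between libraries they are the 6 highest and 6 lowest ratios among genes with at least 100 CPM and a UMI in at least 10% of the cells. The 4 most abundant genes of a list, 11 defining genes and the 15 most abundant genes could be named as well. Mitochondrial, ribosomal protein and unnamed rows were left out, and unnamed rows were taken as every symbol that starts with AC and a digit, wider than first written. Some list genes called in the test were also named beside their list's count, which was decided after their values were seen. Of 379 list symbols, 353 were found, 4 of them under another name. Promoters are from RefSeq (GRCr8). Some genes are not reported here.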

Additional observations from a re-analysis of the deposited data

Results flagged for a closer look

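IL-17 UMIs were counted in barcodes outside the T cell classes, above the level in control. The share of keratinocyte barcodes with an Il17a or Il17f UMI was 0.766% in the 14 d library, 7.64% in the 28 d library and 0.504% in the 60 d library, against 0.0226% in control. Of the fibroblast barcodes of the 28 d library 4.23% held one, against 0 of 3171 in control.

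For 3 genes the difference between IL-17-producing T cells and T cells without IL-17 went opposite ways in different libraries, past 2-fold each way and with counting intervals that left out 1, which was not tested. Cdkn1a had a ratio of 2.38 in the 7 d library (1.41 to 3.95), against 0.407 in the 14 d library (0.288 to 0.563) and 0.764 in the 28 d library (0.633 to 0.923). Id2, an inhibitor of DNA-binding proteins, had a ratio of 0.484 in the 60 d library (0.299 to 0.750), against 3.55 in the 7 d library (2.22 to 5.64) and 2.27 in the 14 d library. Eno1, a glycolytic enzyme, had a ratio of 0.420 in the 7 d library (0.148 to 0.969), against 1.30, 1.17 and 2.64 (2.07 to 3.37) in the 14 d, 28 d and 60 d libraries. The 7 d values rest on 11 cells.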

How the results depend on the processing

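Calling members with at least 3 of 5 T cell genes gave 0% of kept barcodes and 0% of the T cells in control, 21.2% of the T cells at 14 d, and 4.24% of kept barcodes and 61.6% of the T cells at 28 d; at least 3 IL-17 UMIs gave 5.56% and 52.4% at 28 d. The Il17f share was 20.3% at 14 d with at most 10% mitochondrial UMIs, and 0% in control without the top 6% of Scrublet scores. The counts of genes higher and lower between classes were 45 and 40 of 1473 tested after thinning to 1000 UMIs. Without cytotoxic cells they were 48 and 41 of 3386 tested. With no replicate block, that is, without the library term, they were 18 and 23 of 4341. Genes lower were 73 with 3 of 5 T cell genes, 71 with DESeq2, 79 without myeloid cells (chosen after seeing the data) and 309 with no filter on low counts. Leaving out a library gave 73 to 87 genes higher and 81 to 141 lower, of which 66 to 78 and 66 to 95 were among the calls reported. Every group has a single replicate number, so no pairing beyond the library block was possible. Between 28 d and 14 d cells, genes past 2-fold were 129 higher and 78 lower after thinning, 574 and 527 with at least 20 UMIs, and 86 lower under TMM. Without cytotoxic cells Ctsw turned to 0.87 and Ccl3 to 0.0312, and with 3 of 5 T cell genes Slc2a1 turned to 0.192. The cause of these changes was not tested. Of 124 genes followed between classes, 64 were called, and these 3 were the ones that changed sign. Depth limits the control and 7 d values most, with 6481 and 61136 UMIs over 2 and 11 cells.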
